A study of Drosophila melanogaster with 2 samples.

Results

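Cytoplasmic ribosomal protein genes encode the protein subunits of the ribosome that translates nuclear-encoded messages. They were taken by symbol: every protein-coding gene named RpL, RpS or RpLP followed by a number and optional letters, with sta (stubarista, the fly RPSA gene) added. The rule also lists sop, which matched 0 symbols because the annotation keeps it as a synonym of RpS2, already a member. This gave 86 of the 13981 protein-coding genes on placed sequences, namely 38 of the small subunit, 45 of the large subunit and 3 of the stalk. A further 7 ribosomal protein symbols that carry a hyphen, such as RpL37-1 and RpL22-like, fell outside the rule. No expression was measured here, so the name of the group rests on the annotation alone.

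The study mapped where a tagged CrebA protein sat on DNA in Drosophila melanogaster, using whole wandering larvae of the third instar, the stage that leaves the food before pupation. All larvae came from the CrebA-MiMIC-GFP line, whose CrebA gene carries an added intronic eGFP exon and so makes a CrebA-eGFP fusion, and males and females were pooled. Sonicated chromatin was precipitated with an anti-GFP antibody, although the antibody field of the labels names CrebA. There was 1 group of 2 biological replicates of this line, labelled 4 and 2, with no other genotype, stage or treatment and no control immunoprecipitation analysed here. All tissues were mixed, so a peak from few cells and a weak peak from many cells cannot be told apart. The deposited peak lists were an optimal list of 2238 peaks, a pooled relaxed list of 29999 peaks and a relaxed list of 29999 peaks for each replicate. The relaxed lists hold background as well as peaks, and their fixed length means that some of their entries are weak by construction. With 1 group no test between conditions exists, and the shares below are descriptions set beside the shares over all protein-coding genes.

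Ribosomal proteins assemble with ribosomal RNA in the nucleolus, and their genes are among the most highly transcribed in growing cells. Many fly ribosomal protein promoters start transcription at a polypyrimidine initiator, also called TCT, in place of the common initiator, and the factors TRF2, DREF and M1BP are known to act at such promoters. CrebA is a bZIP factor of the CREB3 family, known for raising the expression of secretory pathway genes in the fly salivary gland.

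A promoter peak here is a peak whose summit lay within 500 bp of any annotated start of a gene. In the optimal list 5 of the 86 ribosomal protein genes had one (5.81%), against 5.14% of all protein-coding genes. In the pooled relaxed list 11 had one (12.8%), against 23.7% of all protein-coding genes. Replicate 4 gave 13 (15.1%), against 24.3% of all genes, and replicate 2 also gave 13 (15.1%), against 26.0%. In both replicates at once there were 11 (12.8%), against 17.4% of all genes. The group was thus close to the background in the strict list and below it in each relaxed list. Among the 2238 strongest peaks of 1 replicate alone, it was 2 members in replicate 4 (2.33%, against 5.37% of all genes) and 6 in replicate 2 (6.98%, against 5.87%), so which side of the background it fell on differed between replicates. No promoter peak appeared in any of the 4 lists at 71 of the 86 genes, and 15 had one in at least 1 list.

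Ribosomal protein genes are short, with a median length of 1344.5 bp against 2163 bp over all protein-coding genes, and had 1.74 annotated starts on average, against 1.40. A comparison with the 5735 genes whose length lay between 790.5 and 2344 bp, the members' 10th and 90th percentiles, was added after the data were seen. In that class 2.09% had an optimal promoter peak and 16.0% a pooled one, while 9.97% had one in both replicates. The 5.81% of ribosomal protein genes in the optimal list was above this class, their 12.8% in both replicates somewhat above it and their 12.8% in the pooled list below it. The class had 1.16 starts on average and was not matched to the members' 1.74. By starts, 2 of 42 members with 1 start had an optimal promoter peak (4.76%, against 2.93% of all genes). It was 1 of 28 with 2 starts (3.57%, against 7.09%) and 2 of 16 with 3 or more (12.5%, against 20.7%). The position of the group relative to the background therefore depended on the list and on the genes it was set beside.

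**Figure D1:**
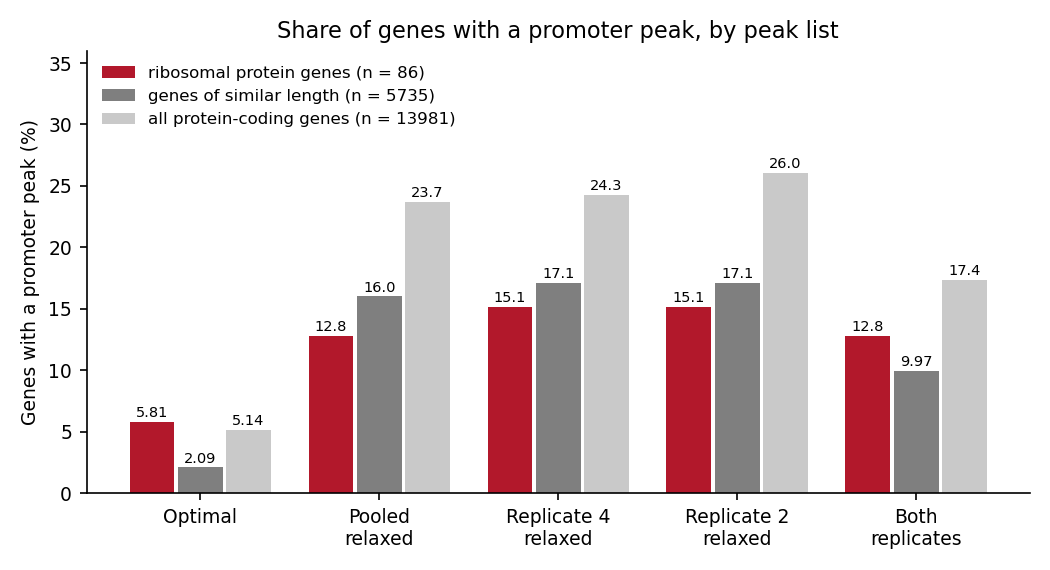
Percentage of genes with a peak summit within 500 bp of a start in each deposited list, and in both replicate lists, for the 86 ribosomal protein genes (red), 5735 genes of similar length (dark grey) and all 13981 protein-coding genes (light grey). The red bar is near the light grey bar in the optimal list (5.81% and 5.14%) and lower in the pooled relaxed list (12.8% and 23.7%).

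The promoters of the genes with an optimal peak are shown because they can be read against the initiator and motif counts given later. The sequences come from the Release 6 RefSeq assembly (dm6), 5′ to 3′ on the strand of the gene, and each runs from 100 bases before to 20 bases after the 5′ end of the gene. Capitals mark the TATA letters TATAAA, the DREF response element TATCGATA and the letters ACGTG on either strand, and the initiator letters CTTT where they start within 5 bases of the 5′ end on the sense strand. In these windows RpS30 holds a DREF response element, and RpS3A holds the TATA letters, ACGTG and the initiator letters. The windows of RpS21, RpL10 and RpL5 hold none of the sequences searched. For RpS30 and RpL5 the start nearest to the summit lay further downstream, outside the window shown. At that start RpS30 has the letters CTTT, and the bases around the RpL5 summit hold the E-box CACGTG.
RpS30, chr3R:20850416-20850535, plus strand: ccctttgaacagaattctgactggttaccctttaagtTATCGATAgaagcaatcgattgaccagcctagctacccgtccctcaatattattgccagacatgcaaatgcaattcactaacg
RpS3A, chr4:67188-67307, minus strand: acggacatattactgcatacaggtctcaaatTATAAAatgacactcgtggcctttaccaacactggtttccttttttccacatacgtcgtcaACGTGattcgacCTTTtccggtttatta
RpS21, chr2L:2855970-2856089, plus strand: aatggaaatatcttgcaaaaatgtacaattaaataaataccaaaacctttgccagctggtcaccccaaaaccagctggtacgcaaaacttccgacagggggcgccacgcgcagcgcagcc
RpL10, chr3L:23095452-23095571, minus strand: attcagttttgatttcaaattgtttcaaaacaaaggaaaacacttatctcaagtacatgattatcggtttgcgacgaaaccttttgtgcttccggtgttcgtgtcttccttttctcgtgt
RpL5, chr2L:22536865-22536984, minus strand: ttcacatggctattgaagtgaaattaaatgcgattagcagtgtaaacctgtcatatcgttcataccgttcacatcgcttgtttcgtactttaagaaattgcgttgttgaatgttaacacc
RpL10 summit, 101 bases centred on the intronic summit, chr3L:23095284-23095384, minus strand: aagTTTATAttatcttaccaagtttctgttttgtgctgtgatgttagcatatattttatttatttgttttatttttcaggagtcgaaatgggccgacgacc

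For contrast, RpL13A and RpL14 are shown in the same window. They had the initiator letters at the 5′ end and a promoter peak in no list, and were taken in alphabetical order from the genes whose sequence could be shown.
RpL13A, chr3R:5624374-5624493, plus strand: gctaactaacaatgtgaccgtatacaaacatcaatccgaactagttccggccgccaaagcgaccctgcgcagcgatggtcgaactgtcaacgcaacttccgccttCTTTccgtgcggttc
RpL14, chr3L:8600906-8601025, plus strand: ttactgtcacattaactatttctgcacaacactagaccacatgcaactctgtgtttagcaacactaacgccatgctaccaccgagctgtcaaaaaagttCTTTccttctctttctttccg

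Of the small subunit genes, 3 of 38 had an optimal promoter peak and 5 (13.2%) a pooled one, and all 5 genes also had a promoter peak in each replicate. RpS30 (FBgn0038834), whose mammalian counterpart is made fused to a ubiquitin-like protein, had the strongest pooled peak of the whole group (3R 20850393 to 20850796). Its signal, the authors' value for the peak, was 83.0 in the pooled list, 32.3 in replicate 4 and 47.2 in replicate 2. Its summit lay 2 bp upstream of the nearest of 3 starts, and its ranks by signal were 1960 of the pooled peaks, 2776 in replicate 4 and 2619 in replicate 2. RpS30 thus entered the optimal list without being among the 2238 strongest peaks of either replicate.

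RpS3A (FBgn0017545), a protein of the small subunit platform, had a pooled signal of 82.9, with 24.6 in replicate 4 and 67.3 in replicate 2. The summit was in exonic sequence 52 bp downstream of the single start, within a peak on chromosome 4 from 66953 to 67356. It ranked 1963 in the pooled list, 4352 in replicate 4 and 1283 in replicate 2. RpS3A is the only ribosomal protein gene of chromosome 4, which is small and mostly heterochromatic. Of its 80 protein-coding genes, 59 (73.8%) had a pooled promoter peak and 9 (11.2%) an optimal one.

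RpS21 (FBgn0015521), known in Drosophila for overgrowth of larval tissues when mutated, had a pooled signal of 79.0, with 17.0 in replicate 4 and 59.9 in replicate 2. Its rank was 8681 in replicate 4 and 1665 in replicate 2, the widest gap in rank between replicates among the 5 genes with an optimal peak. The summit (peak 2L 2855655 to 2856058) was 213 bp upstream of RpS21 and 79 bp from a start of CG3104, an uncharacterized gene, so it lay nearer to the neighbour. The 101 bases centred on that summit held none of the sequences searched and are shown because the summit lay nearer to CG3104 than to RpS21.
RpS21 summit, chr2L:2855807-2855907, plus strand: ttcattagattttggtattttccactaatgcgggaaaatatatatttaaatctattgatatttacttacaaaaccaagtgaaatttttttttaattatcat

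Outside the optimal list, RpS23 (FBgn0033912), which sits at the decoding centre, had a pooled signal of 62.8, with 15.4 in replicate 4 and 54.8 in replicate 2. Its peak (2R 14216516 to 14216919) had a summit 91 bp upstream of a start. RpS10a (FBgn0027494), a paralogue of RpS10b, had the weakest pooled peak of the group, at 16.4 (rank 27660 of 29999), with 9.16 in replicate 4 and 11.8 in replicate 2. Its paralogue RpS10b had no promoter peak in any list, and the nearest pooled summit was 171754 bp away, the longest such distance in the group. The stubarista gene sta had no promoter peak in any list and lay 12450 bp from the nearest pooled summit. RpS2, which carries sop as a synonym, had none either, at 18624 bp.

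Of the large subunit genes, 2 of 45 had an optimal promoter peak and 6 (13.3%) a pooled one. All 6 genes also had a promoter peak in each replicate, but that of RpL41 in replicate 4 lay at another position than its pooled one. RpL10 (FBgn0024733), which joins the large subunit late in its assembly, had a pooled signal of 77.4, with 38.4 in replicate 4 and 44.1 in replicate 2. It ranked 2217 in the pooled list, 2016 in replicate 4 and 2928 in replicate 2, the only one of the 5 genes with an optimal peak to rank better in replicate 4. The summit (peak 3L 23095132 to 23095535) lay 137 bp downstream of the start, in an intron. It was the only optimal promoter peak of the group centred in an intron, and the bases around its summit, shown above, held the TATA letters.

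RpL5 (FBgn0064225), which carries the 5S ribosomal RNA into the ribosome together with RpL11, had a pooled signal of 77.0, with 23.0 in replicate 4 and 52.2 in replicate 2. The summit (peak 2L 22536391 to 22536794) was 57 bp downstream of a start, and it ranked 2234 in the pooled list, 4920 in replicate 4 and 2166 in replicate 2. RpL41 (FBgn0066084), which encodes one of the smallest proteins known, just missed the optimal list with a pooled signal of 74.1, where the weakest optimal peak had 76.9. Replicate 2 gave RpL41 60.7 (rank 1630), while the strongest promoter peak in replicate 4 had 9.84 (rank 25463) and lay 411 bp upstream of the start, away from the pooled summit at 48 bp upstream. No replicate 4 summit lay within 200 bp of the RpL41 pooled summit, so that peak rested on replicate 2. The peak (2R 24903781 to 24904184) was also 134 bp from a start of NaCP60E, a sodium channel gene.

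RpL38 (FBgn0040007), known in the mouse for the translation of Hox messages, had a pooled signal of 57.9, with 29.8 in replicate 4 and 23.2 in replicate 2. Like RpL10 it ranked better in replicate 4 (3152) than in replicate 2 (7628). RpL21 (FBgn0032987) had 54.1 in the pooled list, 18.6 in replicate 4 and 36.6 in replicate 2, and RpL15 (FBgn0028697) had 51.5, 11.7 and 39.5 in the same lists. Summits of RpL38 (2R 4516155 to 4516558) and RpL21 (2L 22247551 to 22247954) lay in introns, 101 and 80 bp downstream of a start. RpL15 (3L 27267119 to 27267522) was the only member with several pooled promoter peaks: besides the summit 65 bp downstream of a start, weaker ones lay 452 bp upstream (28.8) and 309 bp downstream (22.6).

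The stalk genes RpLP0, RpLP1 and RpLP2, whose acidic proteins recruit the translation factors that hydrolyse GTP, had a promoter peak in 0 of the 4 lists. Their nearest pooled summits were 4336, 9643 and 6617 bp away.

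**Figure D2:**
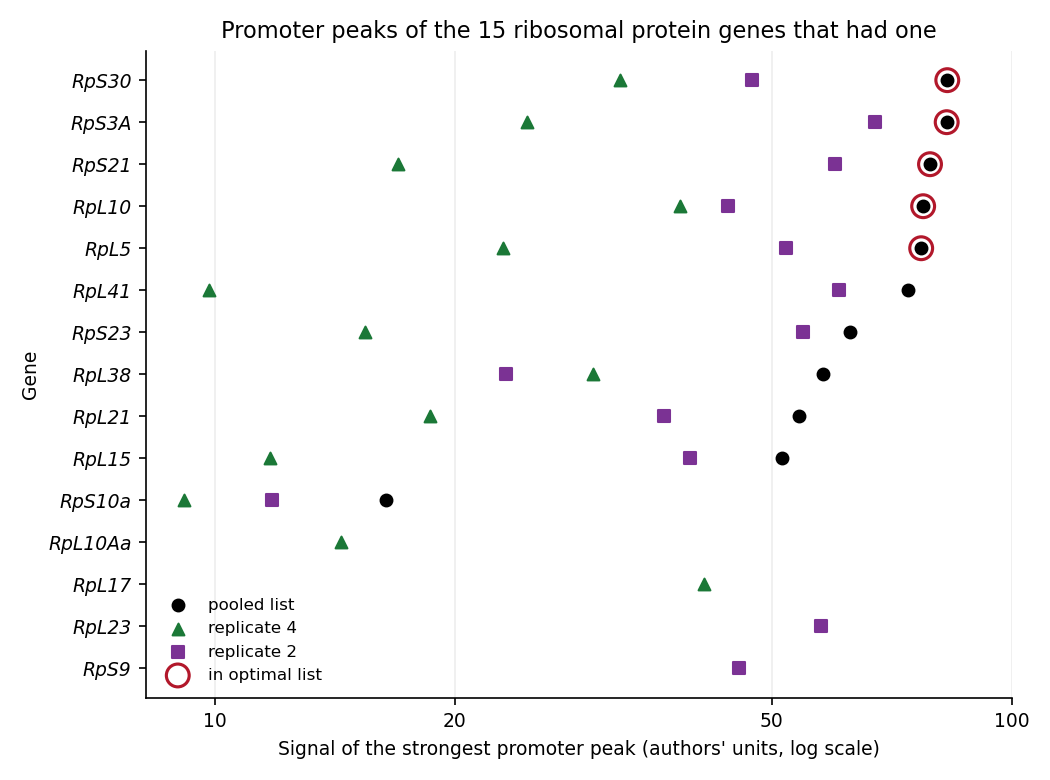
Signal of the strongest promoter peak (authors' units, log scale) in the pooled list, replicate 4 and replicate 2 for each of the 15 ribosomal protein genes that had one, with a ring around those in the optimal list. The 5 ringed genes sit between 77.0 and 83.0 in the pooled list, and replicate 2 lies right of replicate 4 for all genes with both except RpL38. Signals are comparable within a list only.

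Replicates differed in how they ranked these genes. The rank was better in replicate 2 for 9 of the 11 ribosomal protein genes with a promoter peak in both (81.8%), against 1175 of the 2428 protein-coding genes with both (48.4%). RpL41 is among the 9, although its replicate 4 peak lay at another position than its replicate 2 peak. Among the 2238 strongest peaks of each replicate, replicate 4 held promoter peaks of RpL10 and RpL17, and replicate 2 held those of RpL23, RpL41, RpL5, RpS21, RpS23 and RpS3A. These lists had 0 ribosomal protein genes in common. Over all protein-coding genes, 491 were in both, which was 65.4% of the 751 in replicate 4 and 59.9% of the 820 in replicate 2.

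Promoter peaks of 4 genes were in 1 replicate list only. RpL17 (FBgn0029897), part of the wall of the peptide exit tunnel, had a replicate 4 peak with a signal of 41.1, rank 1769 and a summit 11 bp from a start, while its nearest pooled summit was 3793 bp from it. RpL23 (FBgn0010078), at the interface between the subunits, had a replicate 2 peak of 57.6, rank 1801, at 275 bp upstream and also within 500 bp of a start of CG13531, with the nearest pooled summit at 7179 bp. RpS9 (FBgn0010408), near the channel where the message enters, had a replicate 2 peak of 45.5, rank 2779, at 40 bp upstream, and RpL10Aa (FBgn0038281), a paralogue of RpL10Ab, had a replicate 4 peak of 14.4, rank 12274. A strong replicate peak with no pooled counterpart was not confined to this group. Among genes with a promoter peak in the 2238 strongest of replicate 4, 73 of 751 (9.72%) had no pooled promoter peak, and in replicate 2 it was 197 of 820 (24.0%). The corresponding counts of ribosomal protein genes were 1 of 2 and 1 of 6.

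Those that had a pooled promoter peak had signals in a narrow band. The median was 74.1, with quartiles of 56.0 and 78.2, against a median of 36.6 and quartiles of 22.1 and 70.0 over the 3309 protein-coding genes with one. Of the 11, 10 exceeded the median of all genes with one, and the same 10 exceeded a signal of 50. As a share of all members that was 11.6%, against 8.94% of protein-coding genes above 50. That cutoff was not among the planned comparisons. It lies just below the weakest of these 10, RpL15 at 51.5, so the 2 shares depend on where it was set. At the top of the scale the order turned round: the 5 optimal peaks of the group had a median of 79.0, against 118.7 over all 718 genes with an optimal promoter peak. They ranked between 1961 and 2235 of the 2238 optimal peaks, so all 5 lay in the weakest part of that list, and 0 were among its 1119 strongest peaks, where 2.92% of all protein-coding genes had one. The authors' −log10 q-value of these 5 peaks was between 1.45 and 1.62.

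**Figure D3:**
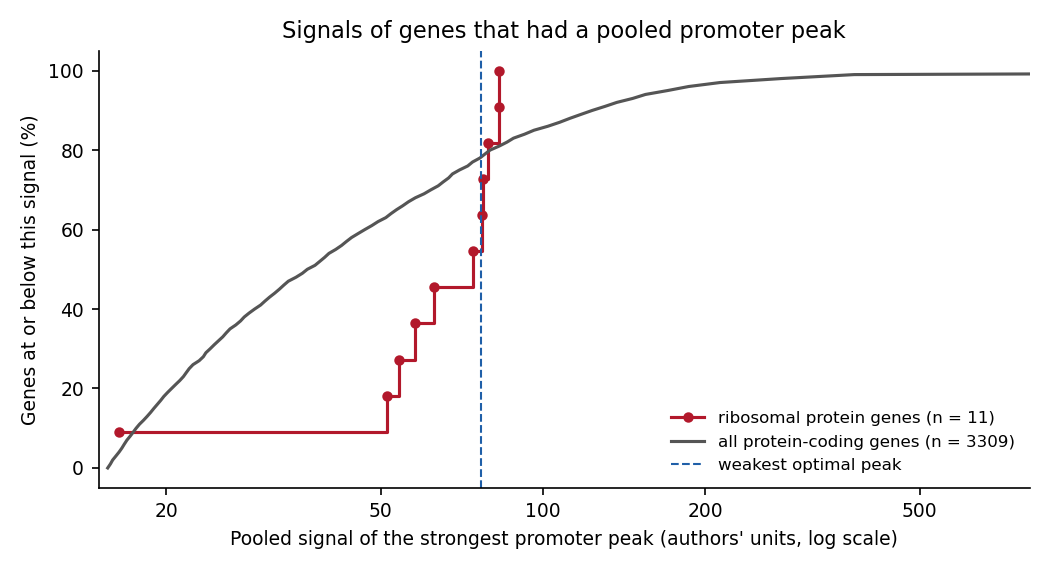
Cumulative percentage of genes by the pooled signal of their strongest promoter peak (authors' units, log scale), for the 11 ribosomal protein genes (red steps) and the 3309 protein-coding genes (grey line) that had one, with the weakest optimal signal of 76.9 as a dashed line. Apart from RpS10a at 16.4, the ribosomal protein genes lie between 51.5 and 83.0, while the grey line continues to far higher signals.

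Away from promoters the neighbourhood of ribosomal protein genes held few pooled summits. The distance from a start to the nearest pooled summit had a median of 14457.5 bp (quartiles 6786 and 26594 bp), against 5539.5 bp over the 13958 protein-coding genes on chromosomes with peaks. It was 7283 bp over the 5735 genes of similar length. Long distances were not particular to this group. The medians were 14125.5 bp for proteasome genes, 12388 bp for mitochondrial ribosomal protein genes and 12067 bp for translation factor genes. Within 1000 bp there were 12 of the 86 genes (14.0%), against 30.2% of all genes, and within 5000 bp 17 (19.8%), against 48.6%. The threshold of 500 bp fell into a wide gap in the group. The members nearest to it on the inside were RpL10 at 137 bp, RpS10a at 197 bp and RpS21 at 213 bp, and those on the outside were RpS28b at 813 bp, RpL17 at 2733 bp and RpL10Aa at 3597 bp. The RpS28b neighbour was a strong optimal peak (X 9553605 to 9553987, signal 384.5, pooled rank 61, ranks 60 and 67 in replicates 4 and 2), whose summit lay 60 bp from a start of another gene, l(1)G0320.

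**Figure D4:**
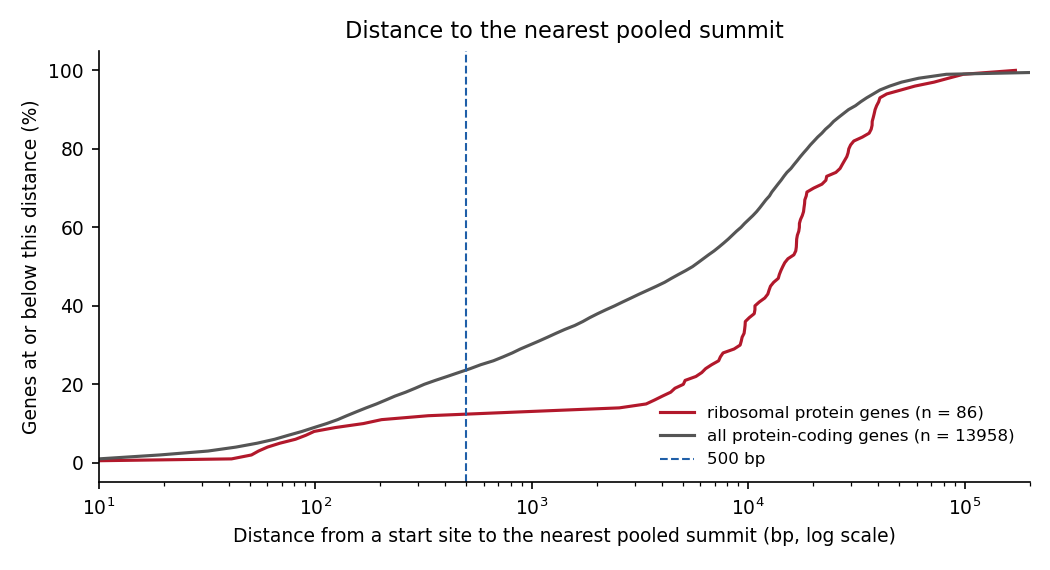
Cumulative percentage of genes by distance from a start to the nearest pooled summit (bp, log scale) for the 86 ribosomal protein genes (red) and 13958 protein-coding genes (grey), with 500 bp as a dashed line. Both lines start together, and the red one stays nearly flat from about the dashed line across the next decade of distance before it rises to its median of 14457.5 bp, against 5539.5 bp for the grey one.

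Inside the genes, more than 500 bp from every start, no member had an optimal summit, against 0.361% of the 10238 protein-coding genes within the members' range of lengths. In the pooled list 5 had one (5.81%, against 7.74%): RpL10, RpL15, RpL38, RpS3A and RpL5, the last with summits at 1733, 2638 and 3962 bp from its 5′ end. All 5 also had a pooled promoter peak. Measured from the 5′ end of each gene, pooled summits lay in the first 250 bp downstream at 6 members (6.98%, against 5.09% of all protein-coding genes) and in the 250 bp upstream at 4 (4.65%, against 10.7%). Measured from the nearest start, the strongest pooled promoter summit was upstream at 5 of the 11 members.

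The genes with peaks were uneven along the chromosomes. Of the 11 with a pooled promoter peak, 6 lay within 6 Mb of the end of their arm sequence nearest to the centromere: RpS3A at 0.0672 Mb, RpL15 at 0.843 Mb, RpL5 at 0.977 Mb, RpL21 at 1.27 Mb, RpL38 at 4.52 Mb and RpL10 at 5.01 Mb. That was 6 of 11 members there (54.5%), against 25.7% of all protein-coding genes in the same zone and 15.6% of the 513 of similar length. The 5 without one in the zone were RpS10b, RpL30, RpS26, RpL35A and RpL13A. Within 2 Mb it was 4 of 4 members, against 111 of 250 protein-coding genes (44.4%) and 12 of the 65 of similar length (18.5%). Of these members, RpL5 (4606 bp) and RpL21 (765 bp) fall outside that length class, and RpS3A and RpL15 are counted in it. Beyond 6 Mb it was 5 of 75 members (6.67%), against 23.4% of all protein-coding genes and 16.0% of those of similar length. In the optimal list 3 of 11 members within 6 Mb had a promoter peak, against 4.41% of all genes there, and 2 of 75 beyond it, against 5.15%. The zone takes in all of chromosome 4. The zones were chosen after the positions were seen, they hold few members, and whether mapping of reads near repeats plays a part was not tested. By arm, 0 of the 14 members on X had a pooled promoter peak, against 16.0% of protein-coding genes on X, and the large autosomal arms were also below their background. The counts were 3 of 17 on 2L (17.6%, against 26.1%), 3 of 18 on 2R (16.7%, against 22.9%), 2 of 14 on 3L (14.3%, against 25.7%) and 2 of 22 on 3R (9.09%, against 24.4%).

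**Figure D5:**
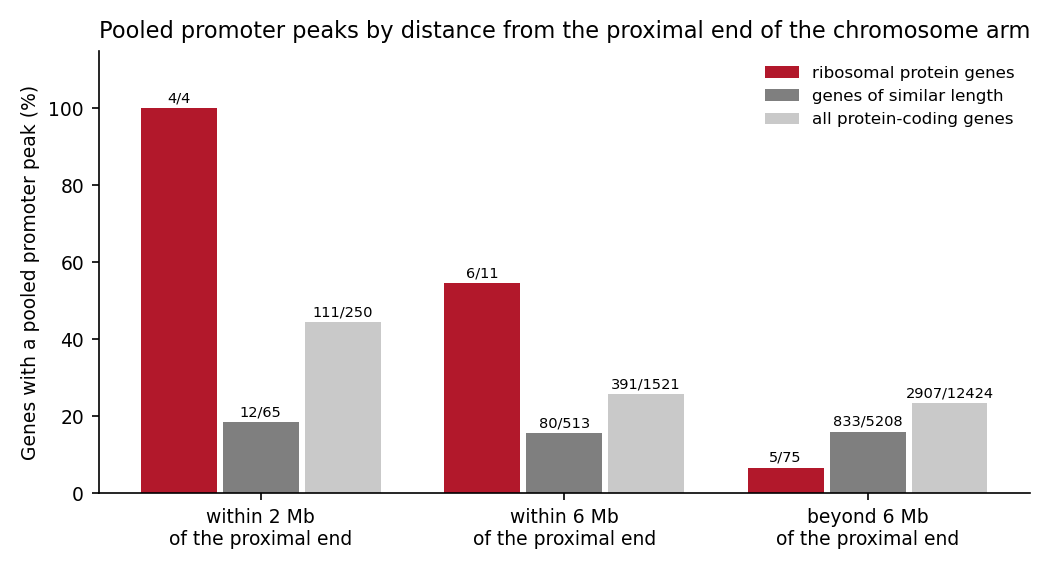
Percentage of genes with a pooled promoter peak within 2 Mb, within 6 Mb (which includes the zone within 2 Mb) and beyond 6 Mb of the arm end nearest to the centromere, for ribosomal protein genes (red), genes of similar length (dark grey) and all protein-coding genes (light grey), with counts above the bars. The red bar is above both grey bars within 6 Mb (6 of 11 genes) and below both beyond it (5 of 75).

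Of the 16 genes with paralogue symbols (such as RpS10a and RpS10b), 0 had an optimal and 1 a pooled promoter peak (6.25%). The other 70 had 5 (7.14%) and 10 (14.3%), against 5.14% and 23.7% of all protein-coding genes. With 16 genes, 0 in the optimal list is little below that background. Many ribosomal protein genes carry small nucleolar RNA genes in their introns. Pooled promoter peaks were found at 3 of the 29 that do (10.3%) and at 8 of the 57 that do not (14.0%), and over the 84 protein-coding genes of the annotation that host such RNAs it was 17 (20.2%). The share did not climb with the number of starts, being 5 of 42 members with 1 start (11.9%), 4 of 28 with 2 (14.3%) and 2 of 16 with 3 or more (12.5%). Over all protein-coding genes the shares in these classes were 19.5%, 29.1% and 49.7%.

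Sequence features of ribosomal protein promoters were present whether or not a peak was. The initiator letters CTTT, starting within 5 bases of any annotated start on the sense strand, occurred at 56 of the 86 genes (65.1%), against 8.05% of all protein-coding genes. They occurred at 6 of the 11 members with a pooled promoter peak and 50 of the 75 without. At the 5′ end alone it was 30 members (34.9%), against 5.63% of all genes. Of those 30, 2 had a pooled promoter peak, whereas 204 of the 787 genes with these letters in the whole annotation had one (25.9%).

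The promoter from 250 bases before to 50 after the 5′ end was searched on both strands for 8 motifs. TATCGATA, the DREF response element, was in 25 of the 86 (29.1%), against 9.35% of all promoters, and GGTCACAC, the core of the element bound by M1BP, was in 14 (16.3%), against 7.68%. GAGAG, bound by GAGA factor, was in 15 (17.4%), against 29.7%. CACGTCA, a core of the CREB3 family, was in 0, against 1.42%, and CAGGTAG, bound by Zelda, in 0, against 1.64%. CACGTG, the E-box, was in 6 (6.98%), against 4.19%, and ACGTG, which lies within both CACGTG and CACGTCA when both strands are read, was in 30 (34.9%), against 23.2%. The TATA letters TATAAA were in 44 (51.2%), against 45.8%, including 9 of the 11 members with a pooled promoter peak and 35 of the 75 without.

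The same motifs were sought within 100 bp of the pooled promoter summits, 13 at members and 4643 at all protein-coding genes. Summits, not genes, were counted, and 3 of the 13 were at RpL15. TATAAA was near 9 of the 13 (69.2%), against 29.4% of all, but near 1 of the 5 optimal summits, against 23.8% of the 791 optimal promoter summits. GAGAG was near 1 (7.69%), against 32.4%, and near 0 of the 5 optimal summits, against 49.9%. CACGTCA was near 0 of the 13, against 1.18%, and the E-box CACGTG near 1, at RpL5, against 2.37%. GGTCACAC was near 2 of the 13 (15.4%), against 1.29%, and near 1 of the 5 optimal summits, against 0.885%. TATCGATA was near 1 of the 13 (7.69%), against 1.66%, and near 0 of the 5, against 1.90%. ACGTG was near 2 of the 13 (15.4%), against 17.2%, and near 2 of the 5, against 22.5%. CAGGTAG was near 0 of the 13, against 0.926%. Matches are descriptions of the letters in these windows.

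Related groups of genes were counted in the same way, beside 5.14% of all protein-coding genes in the optimal list and 23.7% in the pooled list. Mitochondrial ribosomal protein genes, whose products serve the separate ribosome of that organelle, had an optimal promoter peak at 1 of 73 (1.37%), mRpS6 (79.4), and a pooled one at 4 (5.48%). Translation factor genes had 3 of 53 in the optimal list (5.66%), eEF1alpha1 (289), eIF4E1 (134) and eEF2 (84.2), and 5 in the pooled list (9.43%). Proteasome genes had 0 of 48 in the optimal list and 5 (10.4%) in the pooled list. Those 5 were Prosbeta2R1, Prosbeta5R1, Prosbeta5R2, Rpn12R and Rpt6R, whose symbols all carry an added R. Their share and median therefore do not describe the proteasome subunit genes without an added R, which had no optimal or pooled promoter peak. Prosalpha3T, which is among these, had a promoter peak in replicate 4 only (signal 9.77, rank 25787). The median pooled signal was 74.1 for cytoplasmic ribosomal protein genes, against 52.0 for mitochondrial ribosomal protein genes, 84.2 for translation factor genes and 18.7 for proteasome genes. Of 38 genes for ribosome biogenesis and for regulation of ribosomal protein transcription, 2 had an optimal promoter peak (5.26%): Mnt (142.7) and Myc (88.0), which encode factors that bind E-boxes with Max. In the pooled list 3 of the 38 had one (7.89%): Mnt, Myc and Tif-IA (41.9), an initiation factor of RNA polymerase I. Tif-IA had a promoter peak in replicate 4 (32.7) but none in replicate 2. Dref, M1BP and Trf2 had none in any list. None of these differences was tested.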

How the data were processed

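The authors deposited narrowPeak lists from ChIP-seq on dm6. Per the submitters' notes, relaxed lists come from each replicate and from the pooled alignments, with a control, and the optimal one was thresholded by the irreproducible discovery rate (IDR). The sources used here do not give the aligner, peak caller, IDR cutoff or duplicate handling. The deposited signal and −log10 q-value of each peak are the authors' own; signals were used to rank peaks within a list only. Read counts were not analysed, so depth is unknown. Of the 2238 optimal peaks, 2237 were among the 2238 strongest pooled peaks.

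Starts came from Ensembl release 115 (BDGP6.54), sequence from RefSeq Release 6, coordinates are 1-based, and Python 3.11.15, numpy 2.4.6 and pandas 2.3.3 counted overlaps, after a check on simulated peaks. A summit within reach of several genes was counted once per gene. Genes named are sta, sop, the stalk genes, members with an optimal peak, the 10 strongest pooled, the 5 strongest per replicate, members with a peak in both replicates, 3 on each side of 500 bp and paralogues of these; others were chosen after their values were seen. The members, lists and motifs were chosen with earlier results of these data known. The replicates are biological per the labels. Of 40 pathway names, 38 matched, 3 by synonym. Unplaced sequences held 5 protein-coding genes, which were left out.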

Additional observations from a re-analysis of the deposited data

How the results depend on the processing

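Of 30 values recomputed for ribosomal protein genes, 26 stayed within 1.5 times of the reported count, or within the spread between replicate medians for the median signal. That spread (standard deviation 20.2) is between medians on different scales. The part of the count that concerns the median signal is therefore not a measure of stability. With windows of 250 and 1000 bp, 5 (5.81%) and 6 (6.98%) had an optimal promoter peak, against 4.03% and 6.48% of all genes, and 11 (12.8%) and 12 (14.0%) a pooled one, against 17.6% and 30.2%. With 1 replicate left out, 13 had a relaxed promoter peak in either case. Values that moved were the count among the 1119 strongest optimal peaks, 0, the count among the 2238 strongest peaks of 1 replicate, between 2 (replicate 4; 2.33%, against 5.37%) and 6 (replicate 2; 6.98%, against 5.87%), of which only the 2 moved by over 1.5 times, and the median signal, between 18.6 and 47.2, where each replicate's signals have their own scale. The cause was not tested. The zones along the arms, the class of similar length, the initiator at any start, the share of replicate peaks with no pooled summit and the genes shared by the strongest peaks of both replicates were added after the data were seen. No paired analysis was possible because there is 1 group. Depth is unknown, so a gene without a peak is not shown to be unbound.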
